A study of Saccharomyces cerevisiae with 18 samples.

Results

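The genes described here encode the protein subunits of the mitochondrial ribosome of *S. cerevisiae*. They were chosen by name alone, as every gene of the array annotation whose symbol is MRPL, MRPS, MRP or RSM followed by a number, which gave 65 genes of the 5543 on the array. Of these, 37 belong to the large subunit and 26 to the small subunit. The others are *RSM22*, a methyltransferase-like protein needed for assembly of the small subunit, and *MRP8*, which bears the name but is not a ribosomal protein. Of the 63 subunits, 41 have a counterpart in bacterial ribosomes and 22 are found only in mitochondria.

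The mitochondrial ribosome sits on the inner membrane and translates the few messages of the mitochondrial genome, most of which encode hydrophobic core subunits of the respiratory chain and ATP synthase. Its RNAs and a single protein, Var1, are made inside the organelle, while all of the genes described here are nuclear and their products are imported. In laboratory yeast these messages are bound by the Pumilio-family protein Puf3, and their abundance is tied to the choice between fermentation and respiration, which makes them of interest in colonies grown on a carbon source that can only be respired.

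Giant colonies of 3 isogenic strains were compared on solid medium with 3% glycerol, 1% yeast extract and 2% agar, harvested on day 4 or day 7. BR-F is a wild strain with structured biofilm colonies, BR-S is its domesticated derivative with smooth colonies, and BR-RF is a feral subclone, a single clone, that regained structure from BR-S after starvation. On each of 18 two-colour spotted arrays, polyA RNA of 2 strains was hybridised together, giving 3 arrays on each day for each of the couples written BR-RF/BR-F, BR-F/BR-S and BR-RF/BR-S. On the first and second array of a set (arrays 1 and 2) the same RNA was used with swapped dyes, so their mean is biological replicate 1, with array 3 as replicate 2. All values below are log2 ratios of the first strain named over the second, relative to the middle of all genes on the array, and called means an adjusted p under 0.05 in limma. Nothing in the record says that the 2 replicates came from separate platings, so the p-values measure only the spread between these RNA preparations. A ratio compares whole colonies, in which fewer cells of a type and less RNA per cell cannot be told apart.

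The members were measured about as well as other genes. Their background-subtracted signal was 1.13 times the local background in the median, against 1.16 over all genes. Of the 65, 42 were measured on all 18 arrays and 52 were tested in all 6 couples and days. *MRP1* and *MRPL37* were measured on 1 array each and were tested in none, and *MRPL32* was tested in 1. Across genes, which are not independent replicates, the ratios of both biological replicates correlated at r = 0.354 to 0.757 over all genes. Over the members alone, the correlation was 0.08 and 0.15 in BR-RF/BR-F on days 4 and 7, 0.34 and 0.66 in BR-F/BR-S, and 0.38 and 0.76 in BR-RF/BR-S. The members' ratios thus correlated between replicates in both day 7 comparisons with the smooth strain, and hardly at all in the comparison of the structured strains. These are Pearson correlations, on which far members weigh heavily, such as *MRPS17* at -1.22 and -1.55 in those day 7 comparisons. Ranks were not compared. Over all genes, the standard error of a ratio was 0.19 in the median.

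As a group, the mitochondrial ribosomal protein genes stayed close to the middle of the genome in all couples on both days. The median of the tested members was 0.08 in BR-RF/BR-F on day 4 and -0.14 on day 7. It was -0.05 on both days in BR-F/BR-S, and 0.03 on day 4 and -0.13 on day 7 in BR-RF/BR-S. The spread among members was narrower than over all genes, with an SD of 0.23 to 0.42 for the members against 0.43 to 0.55 for all genes. On day 4 in BR-F/BR-S, 98.2% of the members lay within 1.5-fold of no change, against 89.1% of all genes. On day 7 in BR-RF/BR-S, where the members were most spread out, the shares were 86.4% and 78.3%.

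**Figure D1:**
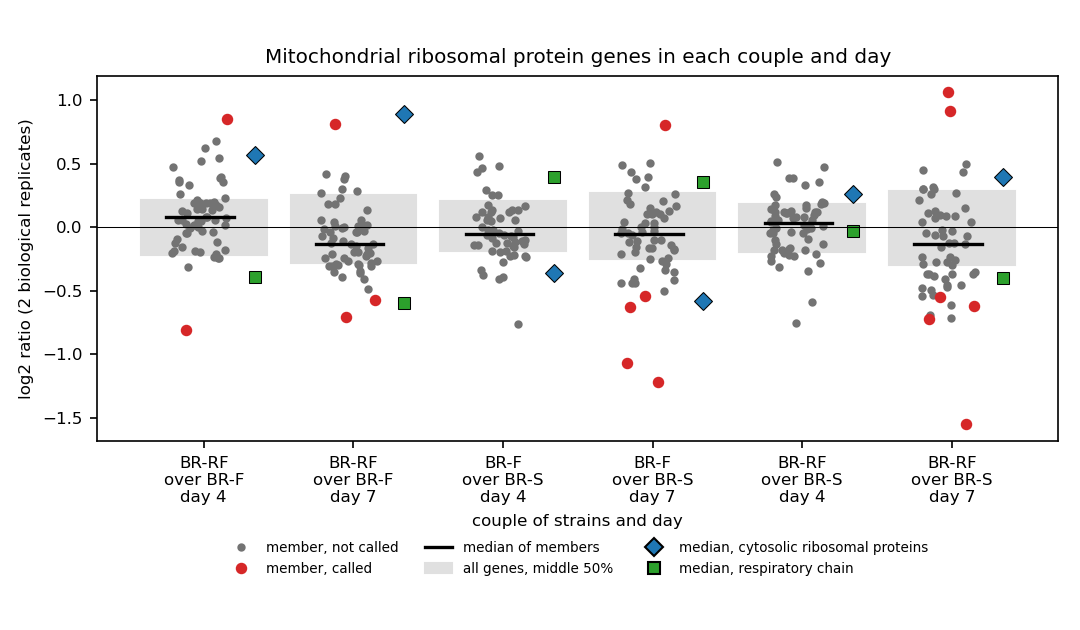
Log2 ratio of each tested mitochondrial ribosomal protein gene (points, called members in red) for the 6 couples and days, with the median of the members (black line), the middle 50% of all genes (grey band) and the medians of cytosolic ribosomal protein (diamond) and respiratory chain genes (square). The members' medians lie between -0.14 and 0.08, while the medians of the cytosolic ribosomal protein genes run from -0.58 to 0.89.

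The medians of a pair of related gene groups lay farther from 0 than the members' median in both couples with BR-F, and on day 7 in BR-RF/BR-S. Of the cytosolic ribosomal protein genes, which build the ribosome that makes nearly all cellular protein, 85 of 130 were called higher and 0 lower in BR-RF/BR-F on day 7, with a median of 0.89. In BR-F/BR-S on day 7, 52 of 130 were called lower and 1 higher, with a median of -0.58. Of the nuclear respiratory chain genes, whose products assemble with the proteins that mitochondrial ribosomes make, 13 of 34 were called lower and 0 higher in BR-RF/BR-F on day 7, with a median of -0.60. In BR-F/BR-S on day 7, 6 of 33 were called higher and 0 lower, with a median of 0.36. In BR-RF/BR-S on day 7, 21 of 130 cytosolic genes were called higher and 3 lower, with a median of 0.39. Of the respiratory chain genes, 8 of 33 were called lower and 0 higher there, with a median of -0.40. The members' medians in these comparisons were -0.14, -0.05 and -0.13. Of all genes on day 7, 7.80% were called higher and 7.44% lower in BR-RF/BR-F. These shares were 6.08% and 5.10% in BR-F/BR-S, and 7.27% and 8.61% in BR-RF/BR-S.

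The difference between the groups was visible on single arrays. The median of the cytosolic ribosomal protein genes was between 0.42 and 1.20 on the 6 arrays of BR-RF/BR-F and between -0.83 and -0.35 on the 6 arrays of BR-F/BR-S. That of the respiratory chain genes was between -0.74 and -0.38 on the former and between 0.23 and 0.50 on the latter. The median of the members was between -0.17 and 0.23 on the former and between -0.13 and 0.16 on the latter, so it lay between the other medians on each of these 12 arrays. The difference between the groups was not tested. Under all 14 alternative settings the cytosolic median kept its sign in each couple and day, as did the respiratory chain median except on day 4 in BR-RF/BR-S, where it was -0.03 and ran from -0.08 to 0.08. The members' median stayed below 0 on day 7 in all of them, from -0.23 to -0.05, and on day 4 it changed sign in each couple under at least 1 setting.

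**Figure D2:**
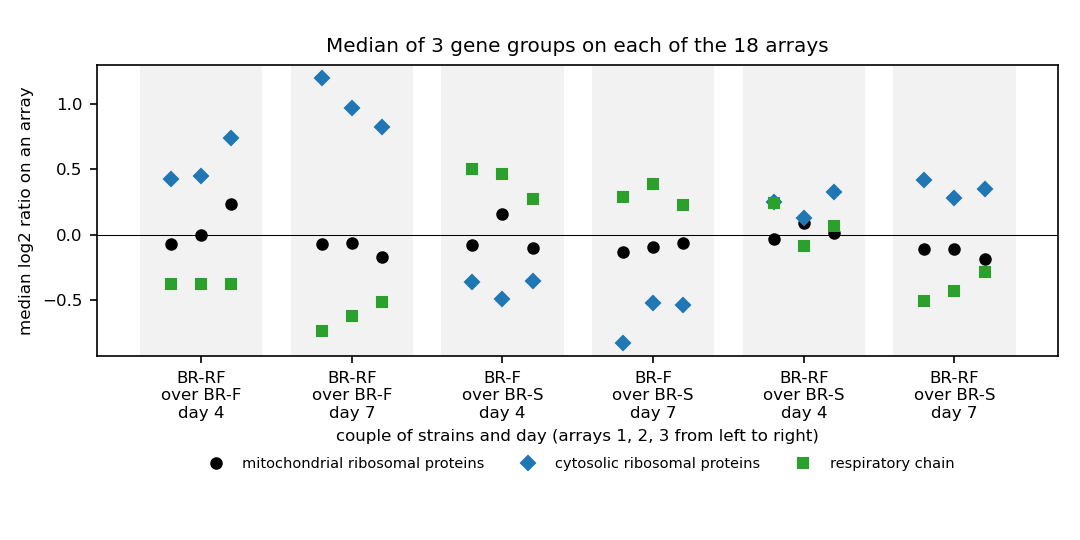
Median log2 ratio of mitochondrial ribosomal protein genes (circles), cytosolic ribosomal protein genes (diamonds) and respiratory chain genes (squares) on each of the 18 arrays, ordered as arrays 1, 2 and 3 within a couple and day. The circles stay between -0.19 and 0.23, and the other groups lie on opposite sides of 0 on all 12 arrays of BR-RF/BR-F and of BR-F/BR-S.

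On day 4 the sign of the members' median differed between arrays. It was -0.07, -0.01 and 0.23 on arrays 1 to 3 of BR-RF/BR-F, -0.08, 0.16 and -0.10 in BR-F/BR-S, and -0.03, 0.09 and 0.01 in BR-RF/BR-S. On day 7 it was below 0 on all 9 arrays, at -0.07, -0.06 and -0.17, at -0.13, -0.10 and -0.06, and at -0.11, -0.11 and -0.19 in the same order of couples.

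The medians of the large and small subunits lay close to each other. On day 7 the median of the large subunit genes was -0.11 in BR-RF/BR-F, -0.08 in BR-F/BR-S and -0.16 in BR-RF/BR-S, and that of the small subunit genes was -0.15, -0.04 and -0.13. On day 4 the medians were 0.07, -0.05 and -0.00 for the large and 0.16, -0.08 and 0.06 for the small subunit. On day 7 in the comparisons with BR-S, the SD was 0.43 and 0.53 among small subunit genes, against 0.29 and 0.33 for the large subunit. A few far genes weigh on these values, with *MRPS17* at -1.22 and -1.55. The middle 50% ran from -0.22 to 0.23 for the small and -0.26 to 0.09 for the large subunit in BR-F/BR-S. In BR-RF/BR-S it ran from -0.37 to 0.11 for the small and from -0.46 to 0.07 for the large subunit. Genes with a bacterial counterpart had day 7 medians of -0.15, -0.10 and -0.13 in the same order, and genes found only in mitochondria -0.07, -0.04 and -0.14.

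Few members were called singly. In BR-RF/BR-F on day 4, 2 of 61 members (3.28%) were called, against 5.89% of all genes tested there, and on day 7, 3 of 59 (5.08%) against 15.2%. In BR-F/BR-S, 0 of 56 members were called on day 4, where 4.69% of all genes were, and 5 of 60 (8.33%) on day 7, where 11.2% were. In BR-RF/BR-S, 0 of 62 members were called on day 4, where 4.79% of all genes were, and 6 of 59 (10.2%) on day 7, where 15.9% were. The members' share was below the share of all genes in each of the 6, which share strains, and this difference was not tested. At an unadjusted p under 0.05, 4 members were higher and 1 lower in BR-F/BR-S on day 4, against 418 and 363 of 4350 genes. In BR-RF/BR-S on day 4, 2 were higher and 2 lower, against 402 and 372 of 4506, and in BR-RF/BR-F 6 and 1, against 490 and 511 of 4959. On day 7 in BR-RF/BR-S, 3 of 59 members were higher and 15 lower, against 722 and 800 of 4716 genes. In BR-F/BR-S they were 3 and 9 of 60, against 695 and 643 of 4902. In BR-RF/BR-F they were 2 and 4 of 59, against 711 and 730 of 4984. In all, 16 of 357 tested ratios were called, from 11 members, of which 4 were called more than once. The members called on day 4 numbered 2, and all 11 were called on day 7 in at least 1 couple. These calls rest on few arrays. Without array 3 a couple and day kept only 1 biological replicate, and its error came from the spread of the other couples and days. That setting is therefore not used for the calls. Without array 1, 10 of the 16 held, and those lost were of *RSM7* in BR-RF/BR-F on day 7 and of *MRP21*, *MRPL35*, *MRPS16*, *RSM25* and *RSM26*. Without array 2, 12 of the 15 that could be tested held, and those lost were of *RSM22* and both of *MRP7*.

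On day 7 the smooth strain held more *MRPS17* message than either structured strain. *MRPS17* (YMR188C, chromosome XIII), the homolog of bacterial ribosomal protein uS17 of the small subunit, was the member with the lowest ratio in both comparisons with BR-S on both days. In BR-RF/BR-S on day 7 its ratio was -1.45, -1.69 and -1.54 on arrays 1 to 3, which gave -1.55 ± 0.20 (SE, 2 replicates; adjusted p = 0.0011, limma), a 2.93-fold lower level. In BR-F/BR-S on day 7 it was -1.03, -1.30 and -1.27, which gave -1.22 ± 0.20 (adjusted p = 0.0043, limma), or 2.33-fold lower. All 6 arrays thus lay at least 1 unit below 0.

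On day 4 the ratios of *MRPS17* pointed the same way but were more scattered. They were -0.72, -0.05 and -1.14 in BR-F/BR-S (-0.76 ± 0.20, adjusted p = 0.0627, limma) and -1.19, -0.30 and -0.76 in BR-RF/BR-S (-0.75 ± 0.20, adjusted p = 0.0669, limma), and neither was called. In BR-RF/BR-F its ratios of -0.05 ± 0.20 on day 4 and -0.21 ± 0.20 on day 7 were not called. *MRPS17* was the only member called in the same direction in both structured strains over BR-S, on day 7, and 0 members were so called on day 4. Both day 7 calls held under the 11 alternatives that kept all arrays, without array 1 and without array 2. Without array 3 either ratio rested on 1 biological replicate, so no call is given.

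The *RSM7* message was more abundant in BR-F, against BR-RF on both days and against BR-S on day 7. *RSM7* (YJR113C, chromosome X) encodes the homolog of uS7, a protein of the head of the small subunit that initiates its folding in bacteria. In BR-RF/BR-F it was -0.52, -0.48 and -1.12 on the 3 arrays of day 4 (-0.81 ± 0.17, adjusted p = 0.0219, limma) and -1.24, -0.22 and -0.69 on those of day 7 (-0.71 ± 0.17, adjusted p = 0.0171, limma), so BR-RF held 1.75-fold and 1.64-fold less. In BR-F/BR-S on day 7 it was 0.87, 0.59 and 0.88 (0.80 ± 0.17, adjusted p = 0.0135, limma), 1.75-fold higher in BR-F. The day 4 values of that couple were 0.73, 0.24 and 0.48 (0.48 ± 0.17, adjusted p = 0.148, limma).

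In BR-RF/BR-S the ratio of *RSM7* was 0.06 ± 0.17 on day 4 and 0.10 ± 0.17 on day 7. All 12 arrays with BR-F on them thus had *RSM7* higher in BR-F, and the 6 arrays of BR-RF against BR-S lay on both sides of 0, from -0.10 to 0.48. The sum of the ratios BR-RF/BR-F and BR-F/BR-S was -0.32 on day 4, next to 0.06 measured directly, and 0.09 on day 7, next to 0.10. The gap between sum and direct ratio had a median size of 0.12 over the members on day 4 and 0.19 on day 7. It was the only member called in the same couple on both days. Without array 3 its calls had adjusted p of up to 0.394 (limma).

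**Figure D3:**
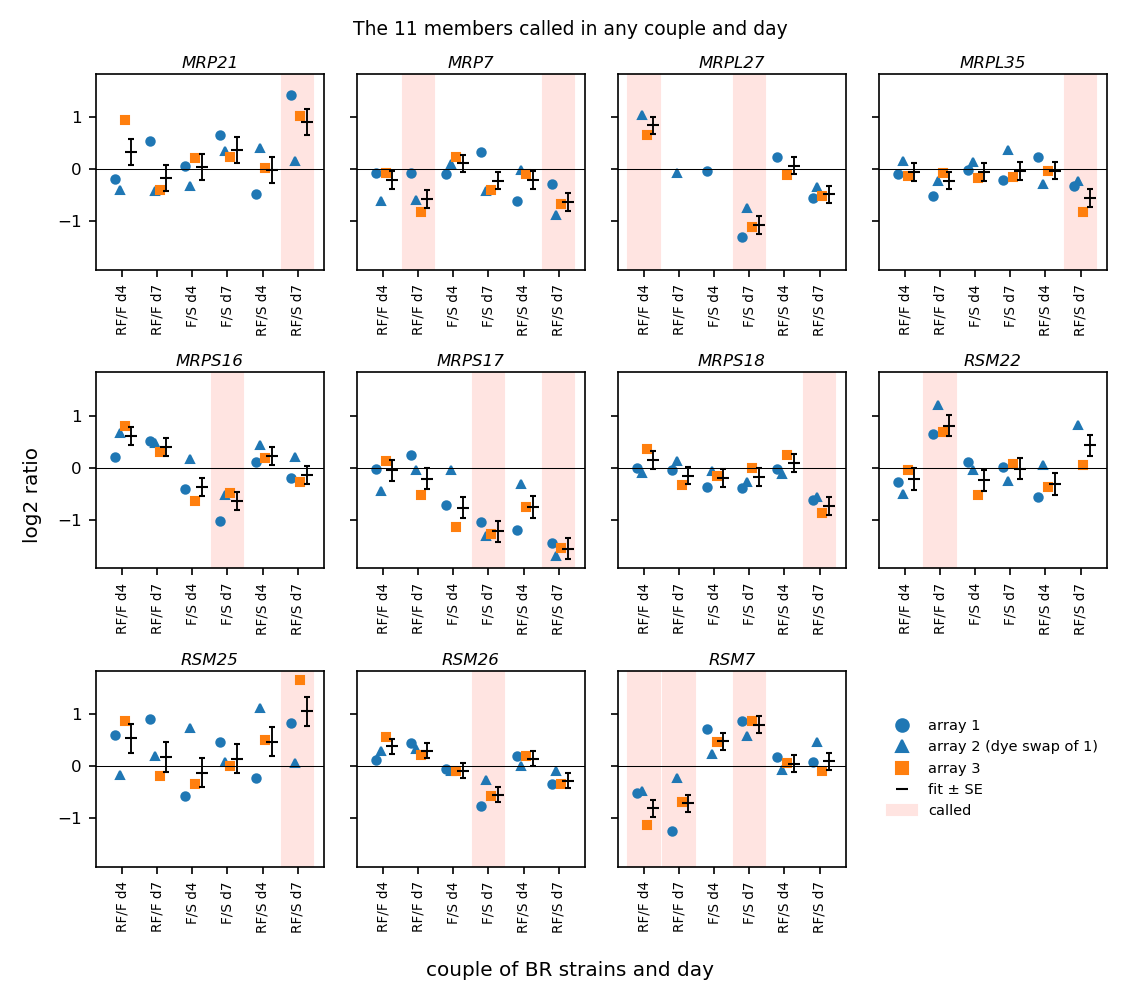
Log2 ratio on array 1 (circle), array 2 (triangle) and array 3 (square) and the fitted ratio ± SE (black) for the 11 members called in any couple and day, with called couples shaded; RF, F and S stand for BR-RF, BR-F and BR-S, and d4 and d7 for the days. *MRPS17* lies between -1.03 and -1.69 on the 6 arrays against BR-S on day 7, and *RSM25* and *MRP21* show wide gaps between arrays 1 and 2.

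*MRPL27* (YBR282W, chromosome II), the mitochondria-specific large subunit protein mL41, was lower in BR-F when set against BR-S on day 7 and against BR-RF on day 4. It was -1.31, -0.74 and -1.11 in BR-F/BR-S on day 7 (-1.07 ± 0.17, adjusted p = 0.0053, limma). In BR-RF/BR-F on day 4 it was 1.05 and 0.66 on arrays 2 and 3 and was not measured on array 1 (0.85 ± 0.17, adjusted p = 0.0220, limma). In the same couples on the other days it was measured on 1 array each and not tested, at -0.04 in BR-F/BR-S on day 4 and -0.06 in BR-RF/BR-F on day 7, both near 0. It was also a dim gene, brighter than only 2.36% of genes, with a signal of 0.428 of the local background, and it was measured on 12 of 18 arrays. When spots had to exceed 0.5 of the background in both channels, it was tested in neither comparison.

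A pair of small subunit genes was lower in BR-F than in BR-S on day 7. *MRPS16* (YPL013C), the homolog of bS16, was at -1.02, -0.52 and -0.49 (-0.63 ± 0.17, adjusted p = 0.0418, limma). *RSM26* (YJR101W), the mitochondria-specific protein mS42, was at -0.76, -0.27 and -0.57 (-0.54 ± 0.14, adjusted p = 0.0347, limma). Both had ratios above 0 on all 6 arrays of BR-RF/BR-F, where *MRPS16* was 0.62 ± 0.17 on day 4 (adjusted p = 0.0659, limma) and *RSM26* was 0.39 ± 0.14 (adjusted p = 0.164, limma), which did not pass the threshold. Each of these calls was also lost under 3 of 11 alternatives that kept all arrays.

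*MRP7* (YNL005C), the homolog of bL27, which reaches towards the peptidyl transferase centre in bacterial ribosomes, was lower in BR-RF than in both other strains on day 7. It was -0.07, -0.59 and -0.81 against BR-F (-0.57 ± 0.17, adjusted p = 0.0448, limma) and -0.28, -0.88 and -0.67 against BR-S (-0.62 ± 0.17, adjusted p = 0.0317, limma). All 6 arrays were below 0. Over the 6 dye-swap pairs *MRP7* was higher with the first strain in Cy5 in 6, by a median of 0.56. Against BR-F, BR-RF carried Cy3 on arrays 2 and 3, and replicate 1, which averages both dye orders, was at -0.33. The part of the dyes in this call was not tested. The call against BR-F was lost under 6 of 11 alternatives that kept all arrays.

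The remaining calls were in comparisons with BR-RF on day 7. *MRPS18* (YNL306W), the homolog of uS11, was at -0.62, -0.57 and -0.86 in BR-RF/BR-S (-0.73 ± 0.17, adjusted p = 0.0185, limma) and kept that call under all 11 alternatives with all arrays. *MRPL35* (YDR322W), the mitochondria-specific mL38, was at -0.32, -0.23 and -0.82 there (-0.55 ± 0.17, adjusted p = 0.0491, limma). That call was lost under 4 of 11 alternatives that kept all arrays. By way of BR-F, the sum of BR-RF/BR-F and BR-F/BR-S on day 7 was -0.31 for *MRPS18*, against -0.73 measured directly. For *MRPL35* it was -0.24, against -0.55. *RSM22* (YKL155C), the assembly factor, was at 0.65, 1.21 and 0.70 in BR-RF/BR-F (0.81 ± 0.21, adjusted p = 0.0226, limma), a 1.76-fold higher level. In BR-RF/BR-S on day 7 it was measured on 2 arrays, at 0.82 and 0.05 (0.44 ± 0.21, adjusted p = 0.173, limma).

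Both members called higher in BR-RF/BR-S on day 7 differed widely between arrays with opposite dyes. *RSM25* (YIL093C), the mitochondria-specific mS23 of the small subunit, was at 0.85, 0.06 and 1.67 (1.06 ± 0.28, adjusted p = 0.0296, limma). *MRP21* (YBL090W), the homolog of bS21, was at 1.43, 0.17 and 1.03 (0.92 ± 0.25, adjusted p = 0.0324, limma). BR-RF carried Cy5 on arrays 1 and 3 and Cy3 on array 2, which held the low value of either gene. Over the 6 dye-swap pairs of arrays 1 and 2, *RSM25* was higher on the array with the first strain in Cy5 in 6, by a median of 0.78, and *MRP21* in 5, by 0.60. Nor were these ratios matched by way of BR-F, since the sum of BR-RF/BR-F and BR-F/BR-S on day 7 was 0.34 for *RSM25*, against 1.06 measured directly, and 0.21 for *MRP21*, against 0.92.

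Among the 45 members with all 6 such pairs this median difference ran from -0.56 to 0.84, with a median of -0.01. Of these, 11 were higher with the first strain in Cy5 in all 6 pairs, *MRP7* (by 0.56) and *MRPS17* (by 0.36) among them, and 5 were lower in all 6. In a fit with a dye term for each gene, *RSM25* was 0.71 and *MRP21* was 0.78 in BR-RF/BR-S on day 7, both lower than in the main fit. That fit took dye-swapped arrays of the same RNA as separate values, so its p-values cannot be set beside those of the main fit.

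*RSM25* was also the only member on chromosome IX, whose genes were higher in BR-RF as a block. The median of all genes tested on this chromosome was 0.29 and 0.32 in BR-RF/BR-F on days 4 and 7, and 0.37 and 0.35 in BR-RF/BR-S. The corresponding ratios of *RSM25* were 0.54 ± 0.28, 0.18 ± 0.28, 0.48 ± 0.28 and 1.06 ± 0.28, of which the last was called. In BR-F/BR-S its ratio was -0.12 ± 0.28 on day 4 and 0.15 ± 0.28 on day 7, and their sign changed with the normalisation or with an array left out. The left arm of chromosome XV, where the median of all tested genes was between 0.55 and 0.70 in both BR-RF couples, held 0 members. On the right arm of chromosome XII the only member was *MRPL4* (YLR439W), the homolog of uL29 at the polypeptide exit, at -0.68, -1.07 and -0.30 in BR-RF/BR-S on day 4 (-0.59 ± 0.18, adjusted p = 0.0998, limma) and at -0.54 ± 0.18 on day 7 (adjusted p = 0.0616, limma). Members lay on 14 chromosomes in all, and the medians of the 63 outside these regions were 0.08 and -0.14 in BR-RF/BR-F and 0.03 and -0.13 in BR-RF/BR-S. Only *MRPS12* and *RSM19* were direct neighbours.

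**Figure D4:**
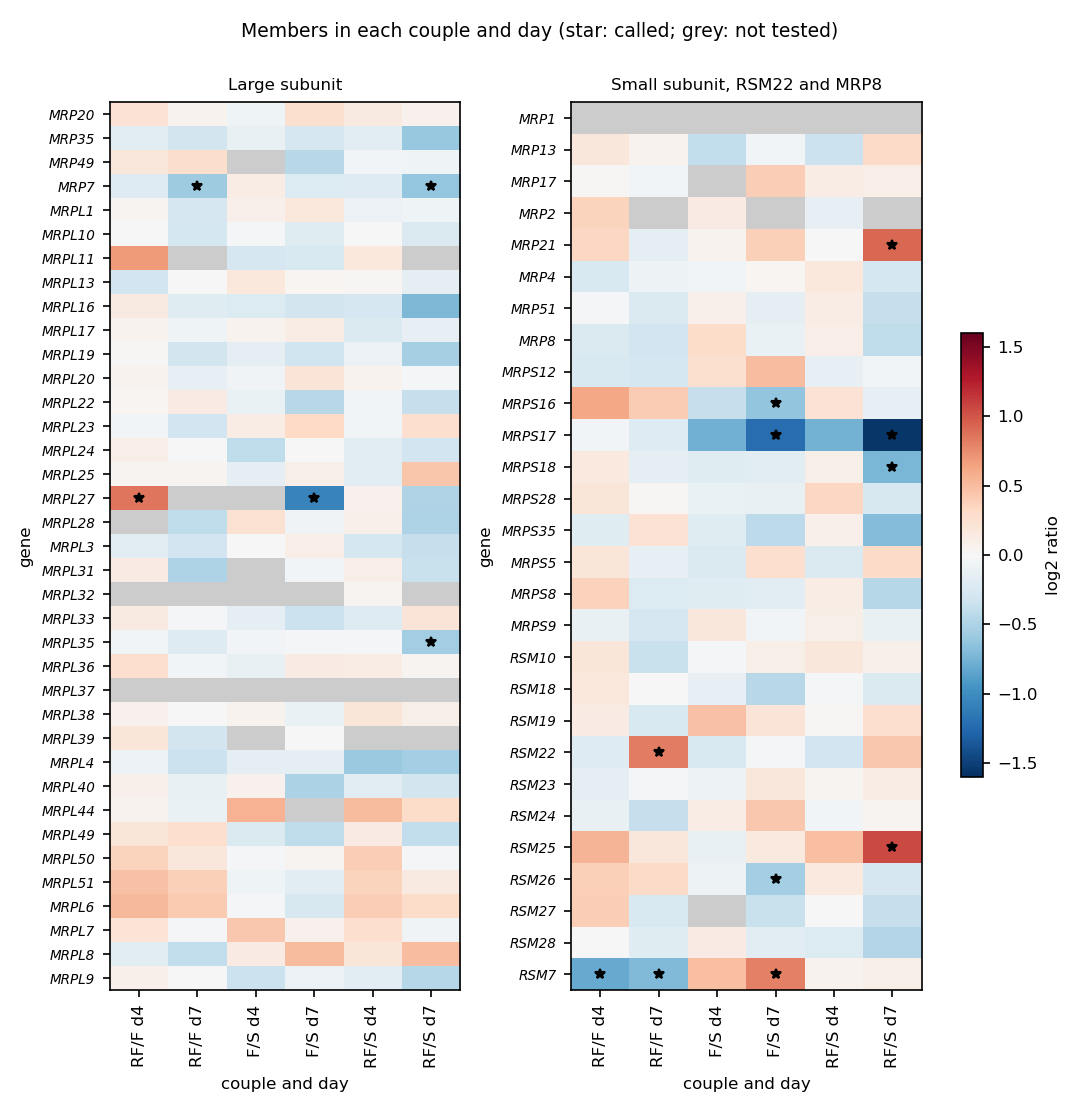
Fitted log2 ratio of all 65 members in the 6 couples and days (colour scale from blue, lower in the first strain, to red, higher), with stars at the 16 calls and grey where a gene was not tested. Most cells are pale, the calls are scattered over both subunits, and *MRPS17* is the darkest blue cell, at -1.55.

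*MRPL44* and *RSM19* were, like *MRPL4*, among the 3 members with the lowest unadjusted p in a comparison with BR-S on day 4, and were called nowhere. The former, the large subunit protein mL53, was at 0.59 and 0.53 on arrays 1 and 3 of BR-F/BR-S (0.56 ± 0.19, adjusted p = 0.136, limma) and at 0.26, 0.31 and 0.74 in BR-RF/BR-S (0.51 ± 0.19, adjusted p = 0.190, limma). The latter, the homolog of uS19, was at 0.39 and 0.55 on arrays 2 and 3 of BR-F/BR-S (0.47 ± 0.15, adjusted p = 0.123, limma).

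No member was called in the difference between the days. In BR-RF/BR-F, 0 of 58 members were called, against 0.523% of all genes. At an unadjusted p under 0.05, 1 member was higher and 1 lower, against 234 and 227 of 4783 genes. In BR-F/BR-S, 0 of 54 were called, against 0.311% of all genes. At that p, 0 were higher and 1 lower, against 202 and 167 of 4179 genes. In BR-RF/BR-S, 0 of 59 were called, against 0.352% of all genes. At that p, 3 were higher and 7 lower, against 292 and 370 of 4262 genes. The members with the lowest unadjusted p were *RSM22* at 1.02 ± 0.29 (adjusted p = 0.241, limma) and *MRPL31* (mL60) at -0.62 ± 0.23 (adjusted p = 0.381, limma) in BR-RF/BR-F, followed by *RSM27* (mS33) at -0.64 ± 0.29 (adjusted p = 0.527, limma). In BR-RF/BR-S they were *MRPS18* at -0.82 ± 0.24 (adjusted p = 0.159, limma), *MRPS28* (the homolog of uS15) at -0.59 ± 0.20 (adjusted p = 0.219, limma) and *MRPS17* at -0.80 ± 0.29 (adjusted p = 0.233, limma). In BR-F/BR-S they were *RSM26* at -0.46 ± 0.20 (adjusted p = 0.542, limma), *MRPL40* (of uL24) at -0.57 ± 0.30 (adjusted p = 0.651, limma) and *MRPS5* (of uS5) at 0.50 ± 0.29 (adjusted p = 0.674, limma).

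As a group, the ratio BR-RF/BR-F was lower on day 7 than on day 4 for 49 of 58 members (84.5%), with a median difference of -0.17. Over all genes the median was -0.01, with 51.2% below 0. The dyes of array 3 were reversed between the days in every couple, and their part in this difference cannot be told apart from that of the day on that array. Without array 3 the members' median difference was 0.02, with 28 of the members below 0, and with a dye term it was -0.08. In BR-RF/BR-S the median difference was -0.21, with 42 of 59 members (71.2%) below 0. Over all genes the median there was -0.04, with 53.9% below 0. The members' median difference in that couple was -0.13 without array 3 and -0.17 with a dye term. Array 3 was reversed there in the opposite sense, with BR-RF in Cy3 on day 4 and in Cy5 on day 7. In BR-F/BR-S the members' median difference was 0.01, with 27 of 54 below 0, against 50.5% of all genes.

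Among the other genes of mitochondrial translation, the called ones are named here, and the lists are too short for their shares to be set firmly against those of all genes. Of 13 ribosomal proteins with other names, 11 were tested in each couple and day, and only *MHR1*, a large subunit protein that also acts in recombination of mitochondrial DNA, was called. It was at -0.91 and -1.29 on the 2 arrays with values in BR-RF/BR-S on day 7 (-1.10 ± 0.17, adjusted p = 0.0027, limma). Of 14 translation factors, 10 to 12 were tested, and 2 of 11 were called in BR-RF/BR-F on day 4, where 5.89% of all genes were, with 0 or 1 in the other couples and days. *TUF1*, the elongation factor Tu, was lower in BR-RF when set against BR-F on day 4, at -0.47, -0.69 and -0.64 (-0.61 ± 0.15, adjusted p = 0.0384, limma), and against BR-S on day 7 (-0.51 ± 0.15, adjusted p = 0.0430, limma).

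*GTF1*, a subunit of the amidotransferase that makes glutaminyl-tRNA in mitochondria, was more abundant in BR-RF than BR-F on day 4 (0.78 ± 0.18, adjusted p = 0.0285, limma) and day 7 (0.70 ± 0.18, adjusted p = 0.0226, limma). In BR-F/BR-S on day 7 it was at -1.14, -0.91 and -0.85 (-0.94 ± 0.18, adjusted p = 0.0083, limma). Of 13 mitochondrial tRNA synthetases, 7 to 12 were tested, and only *MSE1*, for glutamate, was called, in BR-RF/BR-S on day 4 (0.68 ± 0.17, adjusted p = 0.0489, limma). Of 11 genes of ribosome assembly and mitochondrial quality control, 2 of 11 were called in BR-RF/BR-F on day 7, where 15.2% of all genes were, and 0 or 1 elsewhere. Of these, *GEP3*, a GTPase needed for the ribosome, was higher in BR-RF/BR-F on day 7 (0.47 ± 0.13, adjusted p = 0.0353, limma).

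*OMA1*, a protease of the inner membrane placed in the same list, was called in 5 of 6 couples and days. In BR-F/BR-S it was at 0.76, 1.08 and 0.62 on day 4 (0.77 ± 0.17, adjusted p = 0.0251, limma) and at 1.23, 1.18 and 1.21 on day 7 (1.20 ± 0.17, adjusted p = 0.0017, limma). In BR-RF/BR-F it was -0.64 ± 0.17 on day 4 and -0.68 ± 0.17 on day 7 (adjusted p = 0.0479 and 0.0198, limma), and in BR-RF/BR-S 0.77 ± 0.17 on day 7 (adjusted p = 0.0123, limma). Of 17 translational activators, only *AEP3* was called, lower in BR-RF/BR-S on day 7 (-0.48 ± 0.14, adjusted p = 0.0420, limma). Of 8 genes of mitochondrial transcription and RNA, only *RPM2*, the protein of mitochondrial RNase P, was called, higher in BR-RF/BR-F on day 7 (0.81 ± 0.20, adjusted p = 0.0280, limma). Of 4 genes for Puf3 and for insertion of new proteins into the inner membrane, *MDM38*, which binds the ribosome, was higher in BR-RF/BR-S on day 7 (0.81 ± 0.22, adjusted p = 0.0484, limma).

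Sporulating cells, which a colony on a respired carbon source could hold, were looked for with 14 genes, of which 4 to 8 were tested in a couple and day. Their medians were -0.23 and -0.14 in BR-RF/BR-F on days 4 and 7, -0.51 and 0.21 in BR-F/BR-S, and -0.39 and -0.28 in BR-RF/BR-S. *IME1*, the inducer of meiosis, was higher in BR-F in both BR-RF/BR-F comparisons and in BR-F/BR-S on day 7, where it was 1.27 ± 0.23 (adjusted p = 0.0064, limma). *SPS100*, a late spore wall gene, was lower in both structured strains than in BR-S on day 4, at -1.65 ± 0.19 and -1.27 ± 0.19 (adjusted p = 6.72e-04 and 0.0039, limma). *SPS4*, a sporulation gene, was higher in BR-RF/BR-F on day 7 (0.81 ± 0.20, adjusted p = 0.0400, limma), the opposite direction to *IME1* there, and *SPO11*, which makes the DNA breaks of meiosis, was lower in BR-RF/BR-S on day 7 (-0.72 ± 0.16, adjusted p = 0.0174, limma). The part of such cells in the members' ratios was not tested.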

How the data were processed

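The array files hold median Cy3 and Cy5 spot intensities that the authors obtained in TIGR Spotfinder, with local background subtracted as deposited and, per the file headers, no other normalization. The authors' LOWESS-normalized ratios from MIDAS (log2, Cy5 over Cy3) were deposited as a value table. It served as an alternative, after its print blocks, listed column by column in 17 columns and row by row in 1, were brought into the order of the probes, which was found from the values. The genome build of the array design is not given in the sources used here, and R64 was used only for names and gene order, with all 65 members matched.

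Poor spots and spots without positive signal in both channels were left out, and each array was normalized by loess (span 0.3) with weight 0 for the 1910 unnamed of 13056 spots. This left 8040 to 10291 named spots per array, and 2139 of 2340 member spots over the 18 arrays. The number of arrays limits the precision. Spots of a gene were averaged, and ratios were turned to 1 direction per couple. The 12 ratios of biological replicates were fitted with lmFit and eBayes in limma 3.58.1 (R 4.3.3), with a mean for each couple and day, which left 6 residual degrees of freedom. Tests were two-sided, with Benjamini-Hochberg adjustment within a comparison over the genes measured in both replicates. The study's text calls the 3 arrays biological replicates, whereas the deposited record pairs arrays 1 and 2 as a dye swap. The fit was tested on simulated data. Further steps used Python 3.11.15, numpy 2.4.6, pandas 2.3.3 and matplotlib 3.10.9.

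Members, roles and lists were chosen with earlier results of these data known, and the role of *MRP35* was added after the probe annotation was read. *MRP35* was then taken from the list of ribosomal proteins with other names. Members named in the text were those called, or the 3 with the lowest unadjusted p where fewer than 3 were called in a couple and day or 0 between days, and those on chromosome IX and the left arm of XV. *MRPL4* and *MRPS12* are also named for their position. Of the lists of mitochondrial translation and of sporulation, the called genes are named. Alternatives covered normalization, spot filters, the model and the threshold, and each array was left out in turn.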

Additional observations from a re-analysis of the deposited data

How the results depend on the processing

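The counts of called members depended most on how the arrays were modelled. Counts are given in the order BR-RF/BR-F, BR-F/BR-S and BR-RF/BR-S. They were 2, 0 and 0 on day 4 and 3, 5 and 6 on day 7, with 0 in each difference between days. With the dye-swap pair as a random block, where the consensus correlation of the pair was negative (-0.304), they were 4, 2 and 2 on day 4, 14, 10 and 18 on day 7 and 2, 0 and 1 between days, and with a dye term 4, 2 and 2, then 8, 13 and 11, then 2, 0 and 1. The fit with a dye term took dye-swapped arrays of the same RNA as separate values. The share of all genes called on day 7 rose too, to 28.5%, 22.9% and 26.1% with the random block and 28.1%, 26.3% and 23.2% with the dye term, and of these the members' share was above it only in BR-RF/BR-S with the random block (18 of 59). The 3 arrays as replicates gave 2 in BR-RF/BR-S on day 4, loess within print blocks 1 in BR-F/BR-S on day 4, 6 in BR-RF/BR-F and 12 in BR-RF/BR-S on day 7 (22.3% and 22.6% of all genes) and 1 between days in BR-RF/BR-S, and the authors' LOWESS values gave 1 in each couple with BR-S on day 4. Median centring gave 3 in BR-F/BR-S on day 7, and the filter on signal above 0.5 of the background 1 in BR-RF/BR-F on day 4. Counts under an alternative that stand here without a share of all genes cannot be set against all genes. At 1.5-fold and an unadjusted p under 0.05 the counts were 4, 1 and 2 on day 4 (11%, 9.82% and 9.72% of all genes) and 2, 0 and 7 between days (8.03%, 6.87% and 13.2%).

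Deviations of same-numbered replicates correlated at r = -0.543 to 0.323 between couples and days. Replicate 1 averages both dye orders and replicate 2 has only 1, so these values cannot show whether the numbers pair the samples. With the replicate block 3 members were called in BR-F/BR-S on day 7, and 12 of the 16 calls held. Without array 1, the counts were 3, 0 and 0 on day 4, 2, 4 and 4 on day 7, and 0 between days. Without array 2, they were 1, 1 and 1 on day 4, 1, 5 and 11 on day 7, and 0 between days. The shares of all genes under these settings are not given here, so these counts cannot be set against all genes. Without array 3 each couple and day kept 1 biological replicate, so no count is given. Of 16 called ratios, 16 held with a dye term, with an offset of 50, with marked spots kept and with the random block, 15 with the authors' LOWESS values, 14 without chromosome XV left arm and IX genes in the loess and with 3 arrays as replicates, 13 with loess within print blocks, 11 with median centring, and 10 of 14 with the filter on signal. No called ratio changed sign. The uncalled ratio of *RSM25* in BR-F/BR-S turned to -0.18 on day 7 with loess within print blocks, and on day 4 it ran from -0.45 to 0.20 with 1 array left out. The cause of these changes was not tested.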
